A study of Mus musculus with 8 samples.

Results

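The Bcl2 family decides whether a cell keeps or loses the integrity of its outer mitochondrial membrane, and here its transcripts were measured in mouse kidneys at embryonic day 13.5 (E13.5). The 10 genes chosen were the pro-survival members Bcl2, Bcl2l1 and Mcl1, the effectors Bax and Bak1, and the BH3-only members Bid, Bcl2l11, Bbc3, Pmaip1 and Bmf. The members were the 18 probes, of 41174 probes that are no controls, whose RefSeq accession on the array maps to these genes. These 18 probes cover 10 of the 17305 genes named on the array, and 18 of 18 passed the filter on dim probes. Bcl2l1 and Bmf had 3 probes each, Bcl2, Mcl1, Bak1 and Bcl2l11 had 2 each, and Bax, Bid, Bbc3 and Pmaip1 had 1 each.

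Kidneys whose genotype is given as mutant (UB HDAC1, 2-/-), a deletion of the histone deacetylases in the bud that forms the collecting ducts, were compared with wild type kidneys, all from E13.5 embryos of a mixed CD1 and C57BL/6 background. The labels describe 4 biological replicates, and each paired 1 mutant RNA with 1 wild type RNA on 2 two-colour Agilent arrays with the dyes exchanged. They do not name the Cre line or other means by which the genes were deleted, nor the number of embryos behind an RNA. RNA came from whole kidneys, so cells outside the bud, in which the deletion was not intended, contribute to every value. In such bulk RNA, fewer cells of a type and less RNA per cell cannot be told apart.

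Pro-survival members bind and restrain the effectors, which otherwise form pores in the outer mitochondrial membrane and release cytochrome c. BH3-only members are the sensors of the pathway: each is induced or activated by a particular stress, and they neutralise pro-survival members or engage the effectors directly. In the developing mouse kidney, Bcl2 and Bcl2l11 are known to act against each other, and mice without Bcl2 develop small, cystic kidneys.

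No member probe passed the adjusted threshold, and the clearest separation was that of Bcl2l11, which encodes BIM. It stood lower in the RNA labelled mutant at 1 of its 2 probes, on 8 of 8 arrays, while Bak1 stood higher at 1 of its 2 probes, also on 8 of 8 arrays. Bmf averaged lower at all 3 of its probes, but less firmly. The groups did not overlap at 2 of them, beside 2.29% of all probes tested. Of these 2, A_52_P78830 has values in 3 replicates only. At Bmf A_52_P384394 the sign turned with the dye, with 3 arrays above 0 and 5 below, and at Bmf A_52_P78830 the mean was -0.52 without and -0.33 with an outlying spot of replicate 2. The promoter windows of these 3 genes are printed because they are the members with a probe at an unadjusted p under 0.05. The sequences are those of RefSeq on GRCm38.p6, each from 250 bases before to 50 bases after the annotated start, written 5′ to 3′ along the gene, at the start that lies furthest upstream. Capitals mark GC boxes, spelled GGGCGG, the CCAAT box and, as the core of the FoxO motif, TGTTTAC, searched on both strands; no capitals in a window mean that none of these letters occur there.
Bcl2l11, chr2:128125788-128126087, strand +: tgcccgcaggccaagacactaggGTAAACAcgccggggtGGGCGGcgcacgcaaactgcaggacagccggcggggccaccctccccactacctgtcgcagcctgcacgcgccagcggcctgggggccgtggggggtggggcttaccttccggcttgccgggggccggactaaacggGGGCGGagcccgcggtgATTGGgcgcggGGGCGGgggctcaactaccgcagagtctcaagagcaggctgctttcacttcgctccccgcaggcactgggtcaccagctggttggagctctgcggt
Bmf, chr2:118549637-118549936, strand -: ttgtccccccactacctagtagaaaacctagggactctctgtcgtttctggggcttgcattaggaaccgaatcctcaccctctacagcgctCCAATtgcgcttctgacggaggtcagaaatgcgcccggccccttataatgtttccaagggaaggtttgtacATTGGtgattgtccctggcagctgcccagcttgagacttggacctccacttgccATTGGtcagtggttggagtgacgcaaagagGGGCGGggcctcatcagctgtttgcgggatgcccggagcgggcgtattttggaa
Bak1, chr17:27028578-27028877, strand -: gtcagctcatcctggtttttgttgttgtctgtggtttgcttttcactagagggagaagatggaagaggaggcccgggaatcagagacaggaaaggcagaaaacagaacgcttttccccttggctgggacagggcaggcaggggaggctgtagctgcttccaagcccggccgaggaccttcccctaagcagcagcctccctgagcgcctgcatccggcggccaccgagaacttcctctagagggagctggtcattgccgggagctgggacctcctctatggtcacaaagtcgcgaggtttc

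The window of Bcl2l11 holds 27 CpG dinucleotides, 3 GC boxes, 1 CCAAT box and 1 FoxO core, that of Bmf 13 CpGs, 1 GC box and 3 CCAAT boxes, and that of Bak1 11 CpGs and none of these motifs. Of the 10 members, 9 matched the RefSeq table, with 16 windows in all, of which 14 hold more CpGs than the median of 7 over 32851 windows of the same length. A GC box occurs in 10 of the 16 windows and in 35.66% of all windows, a CCAAT box in 5 and in 37.41%, and a FoxO core in 2 and in 3.65%. These are matches of letters only, and the arrays measured nothing at the promoters.

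All ratios are the scanner's log ratios in log2, divided so that the labelled mutant stands over the labelled wild type, with the 2 dye orientations of a replicate averaged. Which genotype stands on top is not settled by the deposited files, since the authors' deposited table has the opposite sign. Of its 496 entries, 309 fall on an identifier with 1 probe, and 309 of those oppose the sign given by the dye labels. Bcl2l11 is the 1 member in the authors' deposited table, with a log2 ratio of 0.50 against a scanner mean of -0.50 at probe A_52_P158527. The table does not say which genotype is divided by which, so signs here follow the dye labels, and every sign would turn if the table is mutant over wild type.

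Hdac2, chosen as a check of the label, did not show a loss with the signs of the dye labels. It cannot settle the label, because RNA came from whole kidneys, in which cells outside the bud were not meant to lose the gene. With every sign turned, Hdac2 would be lower in 3 of 4 replicates. Its log2 ratio stood at 0.60, 0.60, 0.74 and -0.61 over replicates 1 to 4, with a mean of 0.33 ± 0.63 (SD, n = 4; limma's adjusted p = 0.757), or 0.65 without replicate 4 and 0.20 without replicate 3. Hdac1 is not analysed here. Kidney markers were present, with 14 of 14 probes of 12 genes well above background on 8 of 8 arrays in both channels. Per array, 82.1% to 95.9% of labelled mutant spots and 79.2% to 97.1% of labelled wild type spots were well above background. Replicate 2 stands apart in limma's array weights, at 0.18 against 1.15 to 4.07 for the others. Over all 39520 probes tested, limma called 7 at an adjusted p under 0.05 (6 higher, 1 lower, 0.0177%), and among the 18 member probes it called 0.

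At an unadjusted p under 0.05, 4 of the 18 member probes were found, where 6.01% of all probes tested reached that p. These were 1 higher, beside 3.15% of all probes, and 3 lower, beside 2.86%. With at least a 1.4-fold difference added, which is the rule named for the authors' table, 2 member probes remained, 1 of Bcl2l11 and 1 of Bmf, both lower, against 2.12% of all probes in either direction and 1.21% lower. The median log2 ratio of the 18 probes was 0.06, beside 0.02 over all probes, and 10 were above 0 (55.6%, beside 54.0% of all probes). A single sign in all replicates with a value was seen for 7 of 18 member probes and for 16.5% of all probes. By role, 5 of 7 pro-survival probes and 3 of 3 effector probes were above 0, and 6 of 8 BH3-only probes were below 0. The medians by role were 0.09, 0.07 and -0.13. These count probes and not genes, with 3 of the BH3-only probes below 0 from Bmf and 2 effector probes from Bak1. Without replicate 2 the mean turned sign for Bid (0.05), Bbc3 (0.03), Bax (-0.02), Bcl2l1 A_52_P510877 (-0.03) and Bcl2l11 A_51_P484880 (-0.09). The BH3-only median was -0.32 in replicate 2 and -0.10 to -0.07 in the others.

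**Figure D1:**
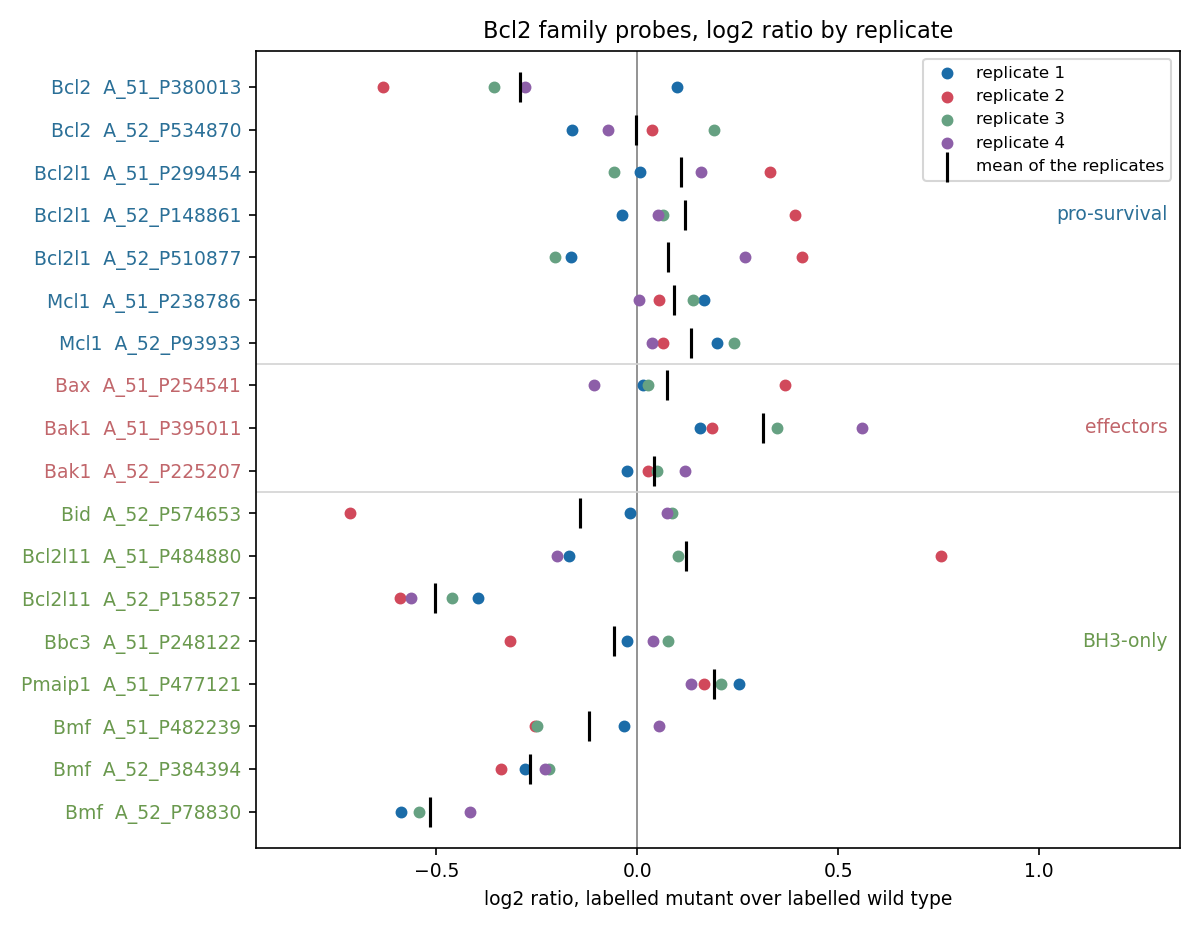
Log2 ratio, labelled mutant over labelled wild type (horizontal axis), for each of the 18 member probes, with 1 point per replicate and a bar at the mean. Bcl2l11 A_52_P158527 lies below 0 in 4 of 4 replicates at a mean of -0.50, and Bak1 A_51_P395011 above 0 in 4 of 4 at 0.31.

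Among the pro-survival members, Bcl2, the founding member that guards the mitochondrial membrane, was measured by a pair of probes. Probe A_52_P534870, assigned to accession NM_009741 and spotted 10 times on each array, had log2 ratios of -0.16, 0.04, 0.19 and -0.07 in replicates 1 to 4. Its mean of -0.00 ± 0.15 (SD, n = 4) is the smallest difference of the family, and levels overlapped between the groups. Probe A_51_P380013, assigned to another Bcl2 accession, NM_177410, had 0.10, -0.63, -0.36 and -0.28, a mean of -0.29 ± 0.30 (limma's unadjusted p = 0.0783, adjusted p = 0.757). Its log2 levels were 12.97, 12.68, 12.68 and 12.76 in the RNAs labelled mutant, and 12.87, 13.31, 13.04 and 13.04 in those labelled wild type. Replicate 1 is the exception in which the RNA labelled mutant was the higher one, and replicate 2 had the largest difference. Without replicate 2 the mean was -0.18. The probes differed by -0.29 ± 0.42 within replicates, so they differ by less than the spread between replicates.

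Bcl2l1, which encodes the pro-survival protein BCL-XL, stood slightly above 0 at all 3 of its probes, with means of 0.12 ± 0.19 at A_52_P148861, 0.11 ± 0.17 at A_51_P299454 and 0.08 ± 0.31 at A_52_P510877 (SD, n = 4 each). At A_52_P148861, which is spotted 10 times, the replicates gave -0.04, 0.39, 0.06 and 0.05. At A_51_P299454 they gave 0.01, 0.33, -0.06 and 0.16, and at A_52_P510877 -0.16, 0.41, -0.21 and 0.27. Replicate 2 was the highest at each of the 3 probes. The levels overlapped at all 3 probes. Without replicate 2 the mean log2 ratio was 0.03 at A_52_P148861, 0.04 at A_51_P299454 and -0.03 at A_52_P510877.

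Mcl1, a short-lived pro-survival protein that many progenitor cells depend on, had the steadiest ratios of the pro-survival members. Its log2 ratios were 0.20, 0.06, 0.24 and 0.04 at A_52_P93933 and 0.17, 0.05, 0.14 and 0.00 at A_51_P238786, above 0 in 4 of 4 replicates at both. The means were 0.13 ± 0.10 and 0.09 ± 0.08 (SD, n = 4 each), and limma's unadjusted p was 0.202 and 0.356. Log2 levels at A_51_P238786 were 14.20, 14.10, 14.01 and 13.97 in the RNAs labelled mutant and 14.04, 14.05, 13.87 and 13.97 in those labelled wild type. These ranges overlap, and with the labelled mutant in Cy5 alone the mean of that probe was -0.07.

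Bax, an effector that moves from the cytosol to mitochondria when a cell is committed to die, did not separate the groups. Its single probe, A_51_P254541, is spotted 10 times and gave log2 ratios of 0.01, 0.37, 0.03 and -0.11, a mean of 0.07 ± 0.20 (SD, n = 4; limma's unadjusted p = 0.533). The log2 levels were 12.56, 12.37, 12.54 and 12.68 in the RNAs labelled mutant and 12.54, 12.005, 12.51 and 12.78 in those labelled wild type. Only replicate 2 differed by more than 0.2, and its wild type level was the lowest of all 8. Without replicate 2 the mean was -0.02. Within replicates the log2 ratio of Bax minus that of Bcl2 at A_52_P534870 was 0.18, 0.33, -0.16 and -0.03, which takes both signs.

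Bak1, the effector that resides in the mitochondrial membrane, stood higher in the RNA labelled mutant at 1 of its probes. At A_51_P395011 the log2 levels were 11.80, 11.56, 11.68 and 11.57 in the RNAs labelled mutant, and 11.65, 11.37, 11.33 and 11.01 in those labelled wild type. The ranges overlap, since replicate 1 of the wild type lies above replicates 2 and 4 of the mutant, but the mutant RNA was the higher one in 4 of 4 pairs and on 8 of 8 arrays. One sign on all 8 arrays was seen for 2 of 18 member probes and for 3.3% of all probes. The log2 ratios were 0.16, 0.19, 0.35 and 0.56, a mean of 0.31 ± 0.18 (SD, n = 4), or 1.24-fold (limma's unadjusted p = 0.0284, adjusted p = 0.757). Within slide 1, which holds replicates 1 and 2, the mean was 0.17, and within slide 2, which holds replicates 3 and 4, it was 0.45. The other probe, A_52_P225207, gave -0.03, 0.03, 0.05 and 0.12, a mean of 0.04 ± 0.06, or 0.02 without replicate 4. The probes of Bak1 share 1 accession, NM_007523, and differed by 0.27 ± 0.13 within replicates, with 1 sign in 4 of 4.

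Bcl2l11 encodes BIM, a BH3-only protein that binds every pro-survival member and is controlled by growth factor withdrawal and FoxO factors. At A_52_P158527 the log2 levels were 12.23, 12.40, 12.08 and 11.93 in the RNAs labelled mutant, and 12.63, 12.99, 12.54 and 12.50 in those labelled wild type. The highest mutant level lies below the lowest wild type level, so the groups do not overlap, which holds for 2.29% of all probes tested. The log2 ratios were -0.40, -0.59, -0.46 and -0.56, a mean of -0.50 ± 0.09 (SD, n = 4), which is 1.42-fold lower in the RNA labelled mutant. Limma's unadjusted p was 0.00161 and its adjusted p 0.355. All 8 arrays were below 0, with means of -0.25 with the labelled mutant in Cy5 and -0.76 with it in Cy3. The mean was -0.49 within slide 1 and -0.51 within slide 2. With array weights the probe passed (limma's adjusted p = 0.027), but so did 462 of all probes, against 7 without weights. Replicate 3 weighed most in that setting, at 4.07 against 0.18 to 1.19 for the others.

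The other probe of Bcl2l11, A_51_P484880, did not follow. It is assigned to the same accession, NM_207680, yet its log2 ratios were -0.17, 0.76, 0.10 and -0.20, a mean of 0.12 ± 0.44 (SD, n = 4; limma's unadjusted p = 0.525). Its log2 levels were 7.75, 7.94, 8.04 and 8.21 in the RNAs labelled mutant and 7.92, 7.18, 7.94 and 8.41 in those labelled wild type. Replicate 2 again decided the mean, which was -0.09 without it. Within replicates the ratio at A_52_P158527 minus that at A_51_P484880 was -0.23, -1.35, -0.56 and -0.36, with 1 sign in 4 of 4. Where on the transcript either probe lies was not analysed here.

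Bmf, a BH3-only protein held at the cytoskeleton until cells detach or are stressed, averaged lower in the labelled mutant at all 3 probes. The groups did not overlap at 2 of them, beside 2.29% of all probes tested. The dye orientations differed at all 3. At A_52_P384394 the log2 levels were 12.66, 12.76, 12.92 and 12.87 in the RNAs labelled mutant, and 12.94, 13.10, 13.14 and 13.10 in those labelled wild type. The groups do not overlap, and the log2 ratios of -0.28, -0.34, -0.22 and -0.23 gave a mean of -0.27 ± 0.06 (SD, n = 4; limma's unadjusted p = 0.0241, adjusted p = 0.757). The dye orientations disagreed behind this small spread. The mean was 0.09 with the labelled mutant in Cy5 and -0.62 with it in Cy3. At A_52_P78830 the log2 levels of replicates 1, 3 and 4 were 6.13, 6.45 and 6.47 in the RNAs labelled mutant, and 6.72, 6.995 and 6.89 in those labelled wild type. Replicate 2 has no value there because 1 of its arrays had an outlying spot, and its other array stood at a log2 ratio of 0.33, opposite in sign to replicates 1, 3 and 4. The log2 ratios of -0.59, -0.54 and -0.42 gave a mean of -0.52 ± 0.09 (SD, n = 3), or 1.43-fold lower (limma's unadjusted p = 0.00644, adjusted p = 0.575). The mean was -0.78 with the labelled mutant in Cy5 and -0.10 with it in Cy3. With the outlying spot kept, the mean was -0.33, which is under 1.4-fold. With array weights this probe passed (limma's adjusted p = 0.037), 1 of 462 probes called in that setting, against 7 without weights. The third probe, A_51_P482239, gave -0.03, -0.25, -0.25 and 0.05, a mean of -0.12 ± 0.16 (n = 4), or -0.08 without replicate 2 and likewise without replicate 3. Its levels overlapped, and its mean was 0.06 with the labelled mutant in Cy5 and -0.31 with it in Cy3.

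**Figure D2:**
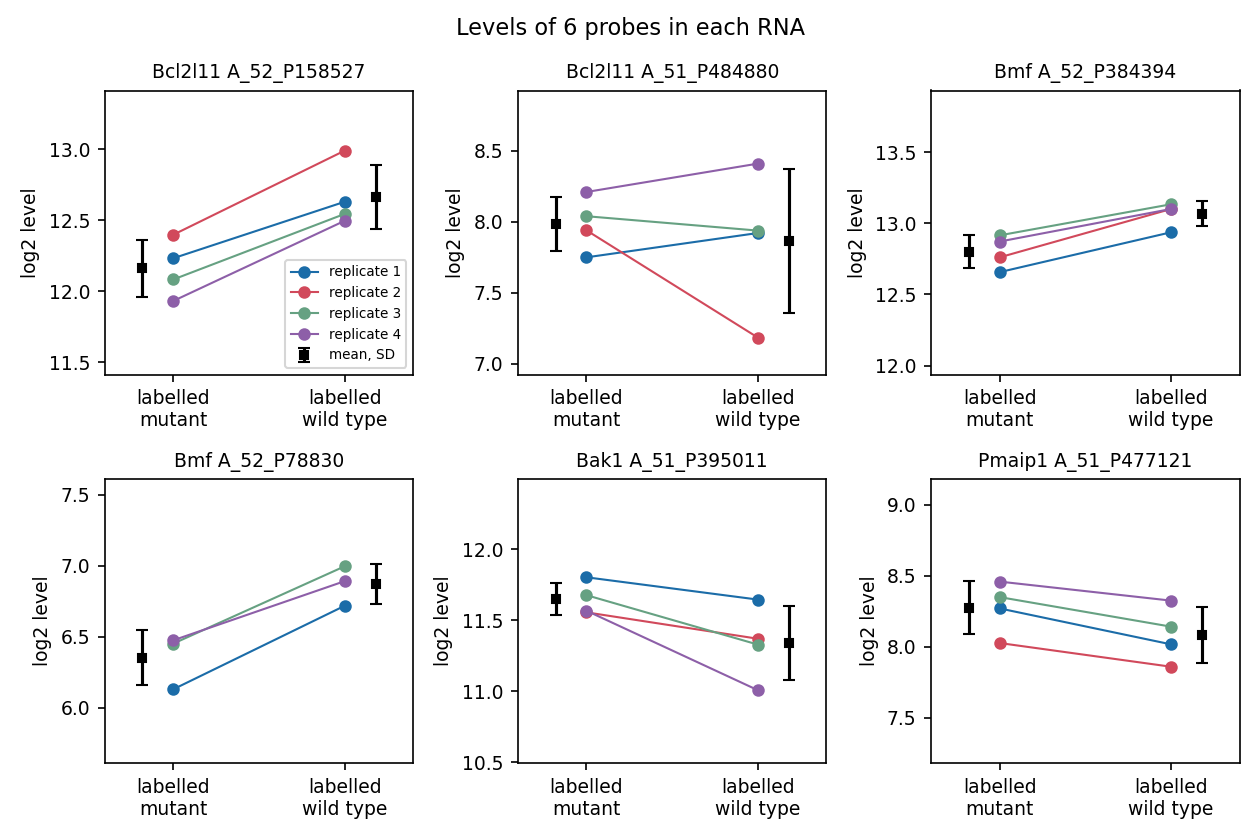
Log2 level (vertical axes, each spanning the same range) of 6 probes in the RNA labelled mutant and in the RNA labelled wild type, with a line joining the RNAs of a replicate and squares for mean and SD. The groups separate at Bcl2l11 A_52_P158527, Bmf A_52_P384394 and, with 3 replicates only, Bmf A_52_P78830. They overlap at Bak1, at Pmaip1 and at the second Bcl2l11 probe. Levels without overlap were seen for 2.29% of all probes tested.

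Pmaip1, which encodes NOXA, a BH3-only protein that mainly targets MCL1, had a small difference, even over replicates but not over arrays. Its log2 levels at A_51_P477121 were 8.27, 8.03, 8.35 and 8.46 in the RNAs labelled mutant and 8.02, 7.86, 8.14 and 8.33 in those labelled wild type. The ranges overlap, while each mutant RNA was above its partner, with log2 ratios of 0.25, 0.17, 0.21 and 0.13. The mean of 0.19 ± 0.05 (SD, n = 4) had an unadjusted p of 0.0757 in limma, above 0.05 even before adjustment. The means of the dye orientations differed little, at 0.22 with the labelled mutant in Cy5 and 0.16 with it in Cy3. Within replicates the orientations lay further apart. In replicate 3 they stood at 0.46 in Cy5 and -0.04 in Cy3, and in replicate 1 at 0.12 and 0.39. Of the 8 arrays, 7 were above 0 and 1 below.

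Bid and Bbc3 showed no common direction. Bid links death receptors to mitochondria after cleavage by caspase-8, and its log2 ratios at A_52_P574653 were -0.02, -0.72, 0.09 and 0.07, a mean of -0.14 ± 0.38 (SD, n = 4). The replicate 2 value came from a wild type level of 11.24, while the other 3 wild type RNAs lay between 10.37 and 10.51 and the 4 mutant RNAs between 10.44 and 10.52. Without replicate 2 the mean was 0.05. Bbc3, which encodes PUMA, a BH3-only protein induced by p53, had -0.03, -0.32, 0.08 and 0.04 at A_51_P248122, a mean of -0.06 ± 0.18 and 0.03 without replicate 2. The levels of both genes overlapped between the groups.

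The dyes moved the member ratios about as much as they moved those of other probes. Between the 2 dye orientations the mean ratio changed sign at 8 of 18 member probes (44.4%) and at 42.2% of all probes tested. The median size of the difference between orientations was 0.20 for the members and 0.20 for all probes, larger than the median size of the mean ratio, 0.12 and 0.13. The widest opposed pairs were those of Bmf A_52_P384394, given above, and of Bcl2l1 A_52_P148861, with 0.43 for the labelled mutant in Cy5 and -0.20 for it in Cy3. Bcl2l11 A_52_P158527 and Bak1 A_51_P395011 kept their sign in both.

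**Figure D3:**
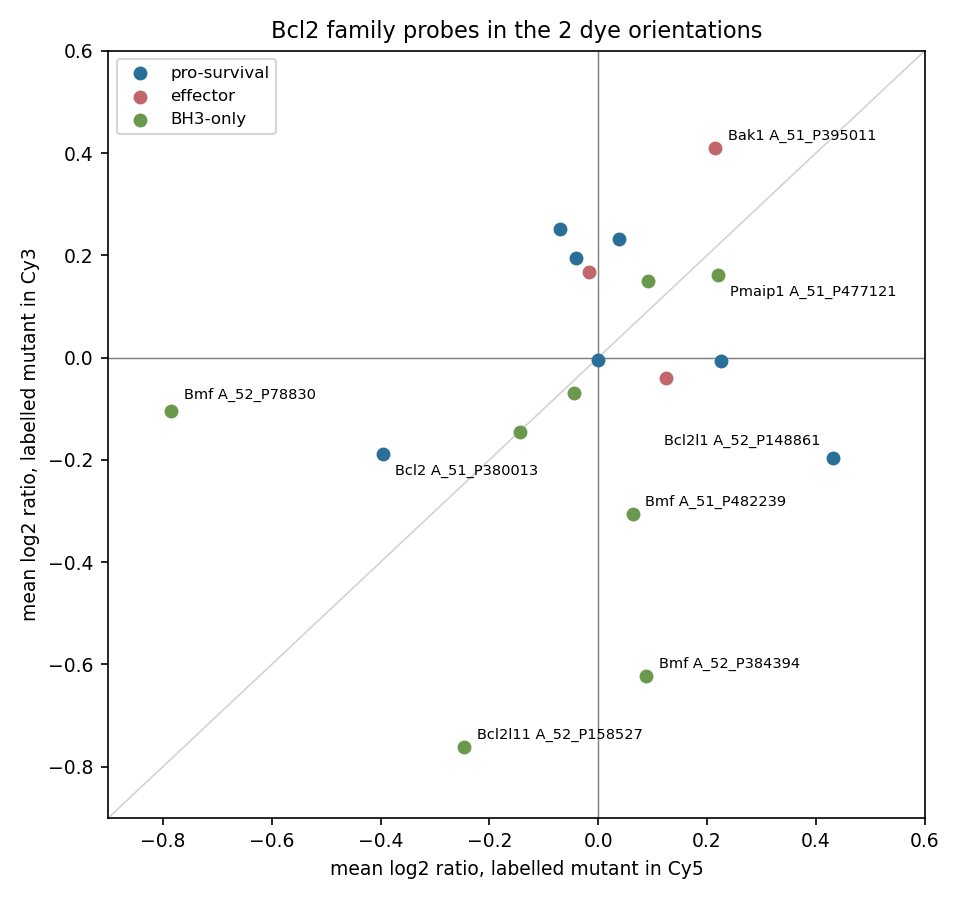
Mean log2 ratio of each member probe over arrays that carry the labelled mutant in Cy5 (horizontal axis) and in Cy3 (vertical axis), 4 arrays each except 3 for Bmf A_52_P78830 in Cy5, with the diagonal where both are equal. Bcl2l11 A_52_P158527 at -0.25 and -0.76 and Bak1 A_51_P395011 at 0.22 and 0.41 keep 1 sign, while Bmf A_52_P384394 at 0.09 and -0.62 does not.

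Repeated spots show how much of the spread arises within an array. Bcl2, Bcl2l1 and Bax each have a probe spotted 10 times on every array, and the SD of the log2 ratio over spots of 1 array had a median of 0.07 for Bcl2, 0.09 for Bcl2l1 and 0.13 for Bax. It was largest on the replicate 2 array carrying the labelled mutant in Cy5, at 0.42 for Bcl2, 0.20 for Bcl2l1 and 0.44 for Bax. Means of the 8 arrays ranged from -0.23 to 0.27 for Bcl2, from -0.33 to 0.69 for Bcl2l1 and from -0.24 to 0.38 for Bax. Between 8 and 10 spots were kept per array. The other 15 member probes have 1 spot each.

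**Figure D4:**
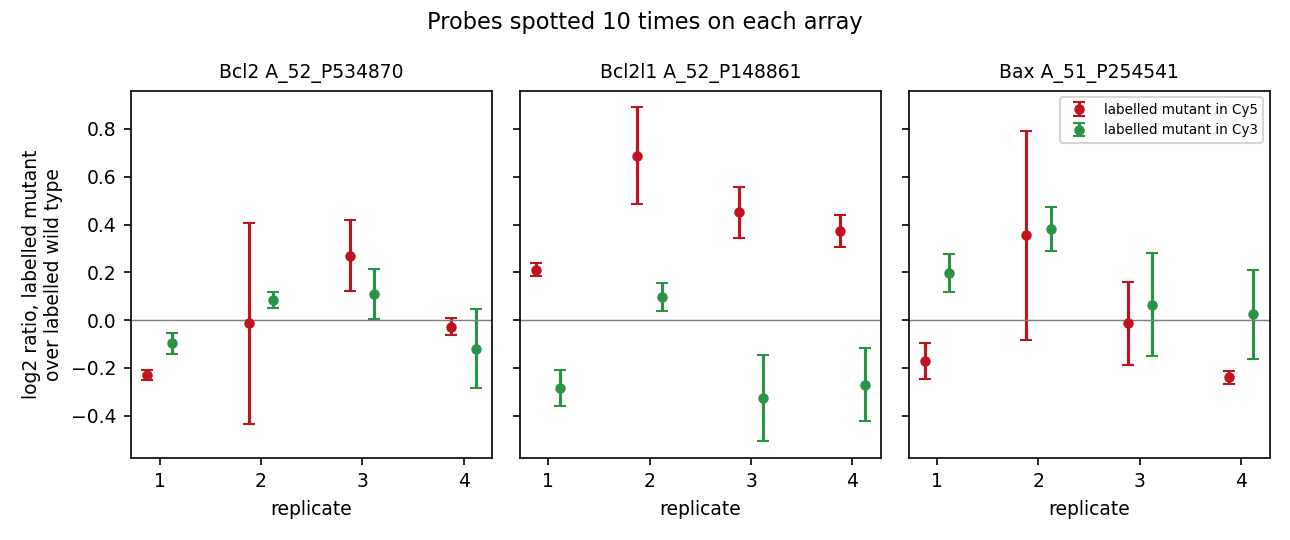
Log2 ratio, labelled mutant over labelled wild type, by replicate (horizontal axis) for the 3 member probes spotted 10 times, each point being 1 array's mean over spots and each bar the SD over those spots. For Bcl2l1 the 4 arrays carrying the labelled mutant in Cy5 lie above 0 and 3 of the 4 with it in Cy3 below 0.

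Other genes of the pathway, from lists chosen with earlier results of these data known, had no probe past the adjusted threshold. Of the other Bcl2 family genes, 15 of 18 were measured and 16 probes tested, with 6 above 0, 10 below and a median log2 ratio of -0.02. Those of smallest p were Bik, a BH3-only protein of the endoplasmic reticulum, at -0.27 ± 0.26 (SD, n = 4; limma's unadjusted p = 0.0752), Bcl2l15 at -0.26 ± 0.34 (0.126) and Bnip2 at 0.19 ± 0.37 (0.28). Another list held the apoptosome, the caspases, their inhibitors, the factors that mitochondria release and the Vdac channels. Of its 28 probes, 20 were above 0 (median 0.10, and 0.32 in replicate 2 against 0.01 to 0.08 in the others). The smallest p values there belonged to the mitochondrial channel Vdac1 at 0.35 ± 0.42 (unadjusted p = 0.0839), the inhibitor of apoptosis Birc3 at 0.22 ± 0.23 (0.109) and Naip2 at 0.45 ± 0.63 (0.112). Naip2 stood at 1.37 in replicate 2 and at 0.03 to 0.37 in the other replicates. Replicate 2 was also farthest from 0 for Bik (-0.57), Bcl2l15 (-0.76), Bnip2 (0.63) and Birc3 (0.57).

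Of 19 probes of the death receptor pathway, 14 were above 0 (median log2 ratio 0.08). Casp8, the initiator caspase that cleaves Bid, stood at 0.28 ± 0.23 (SD, n = 4; limma's unadjusted p = 0.0591), its inhibitor Cflar at -0.18 ± 0.04 at A_52_P226929 (0.0926) and the TNF receptor Tnfrsf1a at -0.15 ± 0.02 (0.142). The other Cflar probes stood at 0.16 (A_51_P135491), 0.08 (A_52_P192071) and -0.08 (A_51_P326091). Of 23 tested probes of factors that control BH3-only genes, 13 were above 0 (median 0.02). At an unadjusted p under 0.05 in limma, 1 was higher, beside 3.15% of all probes, and 1 lower, beside 2.86%. The lower one was Trp53inp1, a p53-induced gene, at -0.41 ± 0.19 (unadjusted p = 0.00998, adjusted p = 0.652), and the higher one Trp63, the p53 relative of stratified epithelia, at 0.49 ± 0.33 (0.0159 and 0.707). The second Trp53inp1 probe, A_52_P503387, stood at -0.28 ± 0.46 (unadjusted p = 0.19), with replicate 2 at 0.40 and the others below 0. The second Trp63 probe, A_52_P17264, did not pass the filter on dim probes and stood at 0.04 ± 0.31. Myc, which sensitises cells to apoptosis, followed at 0.32 ± 0.34 at A_52_P108346 (0.0791). Its other probes stood at 0.19 (A_51_P102096, spotted 10 times on each array) and 0.10 (A_52_P278549). Replicate 2 was farthest from 0 for Trp63 A_51_P216550 (0.98), for Casp8 (0.62) and for Myc A_52_P108346 (0.71). Foxo3, a known activator of Bcl2l11 and Bbc3, stood at 0.13 ± 0.17. Trp53 averaged -0.39 ± 0.63 at A_52_P491849 (limma's unadjusted p = 0.153) and -0.32 ± 0.78 at A_52_P781398 (0.306). Both probes took both signs over replicates, from -1.20 to 0.29 at A_52_P491849 and from -1.48 to 0.17 at A_52_P781398. At A_52_P781398 replicate 2 was the lowest and the others lay between -0.11 and 0.17.

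Markers of the ureteric bud epithelium stood higher in the same RNAs labelled mutant at most probes. Of 15 probes of 12 genes, 14 were above 0, with a median log2 ratio of 0.78 and means from -0.05 for Ret to 1.496 for Cdh16. Their summed linear level ran from 98680 to 114500 in the RNAs labelled mutant and from 49680 to 57780 in those labelled wild type. Among macrophage markers 9 of 12 probes were below 0 (median -0.15, summed level 5660 to 6614 in the RNAs labelled mutant and 6521 to 7408 in those labelled wild type). Of 7 probes of neurons and glia, 6 were below 0 (median -0.24, summed level 11120 to 13020 in the RNAs labelled mutant and 13820 to 21170 in those labelled wild type). No marker of these 3 lists was below background on every array. The part of these cell types in the values of Bcl2l11, Bmf and Bak1 was not tested.

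The gene most alike to each member over the 8 arrays, by Pearson's correlation of the log2 ratio at the member's brightest probe with 24691 probes of named genes, reached 0.95 to 1.00. For Bcl2l11 A_52_P158527 it was Olfr731 (r = 0.95), whose own mean log2 ratio was 0.02, and for Bak1 A_51_P395011 it was Polr2i (r = 0.98), at 0.05. For Bmf A_52_P384394 it was Dll3 (r = 0.99), at 0.05, for Bcl2l1 A_52_P148861 Olfr516 (r = 0.99), at 0.09, and for Bcl2 A_51_P380013 Gabbr2 (r = 0.98), at -1.84. The remaining members were most like Xpot for Mcl1, Elob for Bax, Fbxo36 for Bid, Mcub for Bbc3 and Ppic for Pmaip1. These are the best of many comparisons over 8 arrays that share dyes and RNAs, and they describe the pattern over arrays, dye differences included.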

How the data were processed

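Spots were extracted with Feature Extraction 10.5.1.1, per the file headers, which also name mm9 as the build of the array design. The deposited log ratio is a log10 value, with the Cy5 processed signal divided by that of Cy3. The deposited intensity columns hold median signals without normalization and processed signals that the scanner software background-subtracted and dye-normalized. The authors' deposited table gives 1 log2 ratio per entry; its p 0.05, 1.4-fold and MeV 4.9 come from its name. The deposited flags are 0 or 1, of no other unit.

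Log ratios were converted to log2 and outlying spots left out. Spots of a probe were averaged (43379 non-control spots and 41174 probes per array, no saturated spot among them), then both orientations of a replicate. A probe needed a signal well above background in 1 channel on at least 4 of 8 arrays and values in 3 replicates, which left 39520. Levels are log2 processed signals after Aquantile scaling between arrays, and levels of different probes are not compared, except that the brightest probe of a gene was taken for the search for alike genes and for the setting with 1 probe per gene. Replicate ratios were tested against 0 with lmFit and eBayes (limma 3.58.1, R 4.3.3), two-sided, Benjamini-Hochberg over all probes. The fit was also run on simulated data, with shifts larger than the mean ratio of any member probe. That run does not show whether differences of the members' size would be called. RefSeq's GRCm38.p6 table gave a symbol to 25097 probes by accession. RNAs of 1 replicate share arrays and deviated together (correlation of deviations 0.555 to 0.777), a pairing that the ratio keeps. Members and lists were chosen with earlier results of these data known. Named genes are all member probes, Hdac2, the 3 probes' genes of smallest p in each other list and the most alike genes. Foxo3, Trp53, Ret, Cdh16 and the other probes of Cflar, Trp53inp1, Trp63 and Myc were added after their values were seen. The alternatives tried are given in the closing section. The number of arrays limits the precision.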

Additional observations from a re-analysis of the deposited data

Results flagged for a closer look

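Tests for a lone outlying replicate covered 17 member probes with 4 values and Hdac2, and 2 of these 18 sets were flagged, where chance flags about 1 in 20. In Bid, replicate 2 stood at a log2 ratio of -0.72 while the other 3 replicates lay between -0.02 and 0.09. In Hdac2, replicate 4 stood at -0.61 while the other 3 lay between 0.60 and 0.74, and both its arrays were below 0.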

How the results depend on the processing

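No member probe was called under 16 of the 17 alternatives, and array weights called 2, Bcl2l11 A_52_P158527 and Bmf A_52_P78830. The ratio of Bcl2l11 A_52_P158527 lay between -0.76 and -0.25 and that of Bak1 A_51_P395011 between 0.17 and 0.45 under the alternatives that give a ratio per probe, which leaves out 1 probe per gene. With all 8 arrays and the replicate block (consensus correlation 0.30), limma called 133 probes in all, 96 higher and 37 lower, none of them a member, and the adjusted p of Bcl2l11 A_52_P158527 was 0.313.

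Against 7 probes called, there were 1 with normexp and loess, 2 without the filter on dim probes, 13 with the strict filter, 462 with array weights (270 higher, 192 lower), 1 and 36 with the labelled mutant in Cy5 or Cy3 alone, 0 within slide 1, 452 within slide 2, 0 with the plain one-sample statistic (where 423 probes were at an unadjusted p under 0.05 and 1.4-fold), 3 with 1 probe per gene, and 0 to 10 with each replicate left out (0 without replicates 1, 3 and 4). Against 837 probes at that unadjusted p and 1.4-fold (357 higher, 480 lower), normexp and loess gave 301 (129 and 172), array weights 1479 (355 and 1124), the labelled mutant in Cy3 alone 1650 (933 and 717), within slide 2 1981 (353 and 1628), and leaving out replicates 651 to 1592 (502 and 1090 without replicate 1, 247 and 426 without replicate 2, 315 and 336 without replicate 3, 656 and 359 without replicate 4). The median of the members, 0.0583, was -0.0027 with normexp and loess, 0.0187 and -0.024 with the labelled mutant in Cy5 or Cy3 alone, 0.1103 within slide 1, 0.0087 with 1 probe per gene, and 0.0053 to 0.0651 with a replicate left out.

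Some mean ratios changed sign, among them that of Bmf A_52_P384394, whose mean was -0.27. With normexp and loess these were Bak1 A_52_P225207 (-0.005) and Bcl2l11 A_51_P484880 (-0.0336). With array weights they were Bcl2 A_52_P534870 (0.0761), Bcl2l1 A_52_P510877 (-0.0992), Bid (0.0428) and Bbc3 (0.0404). With the labelled mutant in Cy5 alone they were Bcl2l1 A_52_P510877 (-0.0402), Mcl1 A_51_P238786 (-0.0703), Bax (-0.0173), Bmf A_51_P482239 (0.0634) and Bmf A_52_P384394 (0.0884), and with it in Cy3 alone Bcl2l1 A_51_P299454 (-0.0073), Bcl2l1 A_52_P148861 (-0.1958) and Bak1 A_52_P225207 (-0.0407). Within slide 1 Bak1 A_52_P225207 (-3e-04) turned, and within slide 2 Bcl2 A_52_P534870 (0.0582), Bax (-0.0408), Bid (0.0798), Bcl2l11 A_51_P484880 (-0.0493) and Bbc3 (0.0573). With each replicate left out, ranges that cross 0 were -0.067 to 0.0506 for Bcl2 A_52_P534870, -0.0343 to 0.1712 for Bcl2l1 A_52_P510877, -0.0229 to 0.1353 for Bax, -0.2203 to 0.0468 for Bid, -0.09 to 0.2283 for Bcl2l11 A_51_P484880 and -0.1015 to 0.0297 for Bbc3. Median-centring each array moved the 357 higher and 480 lower probes to 307 and 554. The cause of these changes was not tested.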
